A study of Homo sapiens with 12 samples.

Results

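The genes described here are 10 members of the Notch signaling pathway in the human mast cell line HMC-1. They are the receptors NOTCH1, NOTCH2 and NOTCH3, the ligands JAG1, JAG2 and DLL1, the targets HES1, HES4 and HEY1, and the regulator DTX1. They were chosen by name and matched on the gene symbol, and all 10 were found among the 58381 genes of the deposited tables. Of these 10 genes, 9 passed the filter on low counts, which left 15944 genes for testing, and DTX1 did not.

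RNA was sequenced from 12 libraries, with 3 for each of 4 cell populations that differ in their mutations of KIT, the receptor for stem cell factor. HMC-1 is an established line from mast cell leukemia. HMC-1.1 cells carry V560G-KIT, a heterozygous change in the juxtamembrane region, and HMC-1.2 cells carry V560G together with D816V in the kinase domain. HMC-1.3 cells carry D816V on 1 allele without V560G, and were derived from HMC-1.2 with CRISPR/Cas9 and a repair template that also held a silent base change in the neighbouring codon. The edited cells were selected with puromycin and cloned by limiting dilution, so that HMC-1.3 clone 1 and clone 2 each descend from a single cell, whereas HMC-1.2 and HMC-1.1 are the established sublines. Editing, selection and cloning thus cannot be told apart from the loss of V560G in a comparison of HMC-1.3 with its parent. The genotypes were taken from the labels and the methods of the study and were not checked in reads. All cells grew in serum-containing medium without an inhibitor, and the triplicates were wells plated from the same line, so that p-values measure the spread between wells, which may be partly technical.

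Notch receptors are cut by furin on their way to the cell surface and are activated there by Jagged or Delta-like ligands on neighbouring cells. Binding lets ADAM proteases and then gamma-secretase cut the receptor, and the freed intracellular domain enters the nucleus, joins the DNA-binding protein RBPJ and a Mastermind coactivator, and switches on repressors of the HES and HEY families. In hematopoiesis the pathway is best known for directing progenitors to the T cell lineage, and Notch ligands have also been linked to mast cell differentiation from progenitors.

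The libraries held 29225900 to 43181402 counts each. KIT was at 346 to 469 FPKM (fragments scaled for the length of the transcript and the depth of the library, a level scaled for transcript length), HDC, which makes histamine, at 814 to 1037, and the mast cell regulator GATA2 at 212 to 247. The defining markers MS4A2 and FCER1A, subunits of the IgE receptor, did not exceed 0.45 and 1.27 FPKM, and the chymase CMA1 did not exceed 0.15, so the cells lacked these parts of the mature mast cell program. The summed FPKM of 12 mast cell markers ran from 2485 to 2512 in HMC-1.2 and from 1732 to 1836 in the other libraries, and that of 8 markers of other cell types from 1.03 to 1.25 in HMC-1.2 and from 2.3 to 3.97 elsewhere, with MPO at 0 in all libraries. The sums rest on few genes. TPSAB1, a tryptase whose reads can be split with its paralog TPSB2, had a mean of 575 CPM in HMC-1.2 and 27.2 to 40.3 elsewhere. TPSB2, HDC, SRGN and MS4A2 also had higher means in HMC-1.2 than in each other population. CPA3, KIT, MITF and GATA2 had lower means there than in each other population, and FCER1A and HPGDS went both ways. HBB was lower in HMC-1.2 (mean 0.208 CPM, against 0.818 to 1.07) while COL1A1 was higher (0.689, against 0.312 to 0.343). Both sums move with the contrast between HMC-1.2 and the other groups, and their part in the results below was not tested. In such bulk RNA, fewer cells with a transcript and less of it per cell cannot be told apart. The labels mark 3 libraries as resent (HMC-1.2 replicate 1, clone 1 replicate 3 and clone 2 replicate 1).

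The Notch genes ranged from moderate levels to none. In HMC-1.2, NOTCH1 stood highest at 18.1 ± 0.99 FPKM (SD, n = 3), followed by JAG1 at 10.7 ± 0.591. HES4 (6.75 ± 1.54), HES1 (5.92 ± 0.492), NOTCH2 (5.36 ± 0.362) and JAG2 (4.92 ± 0.242) came next, and the libraries of each neighbouring pair in this order overlapped. DLL1 (1.37 ± 0.0153) and NOTCH3 (1.11 ± 0.406) were lower, also with overlap between them, and HEY1 lay at 0.463 ± 0.0907. The order differed in the other populations. In clone 1, HES1 (10.7 ± 0.555) and HES4 (10.6 ± 0.798) stood above NOTCH1 (8.95 ± 0.617). In clone 2, NOTCH2 (8.16 ± 0.701), HES1 (7.95 ± 0.57), JAG1 (7.84 ± 0.122), NOTCH1 (7.77 ± 0.523) and HES4 (7.64 ± 0.601) did not differ beyond their spread. In HMC-1.1, NOTCH1 was again the highest at 10.8 ± 0.446.

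**Figure D1:**
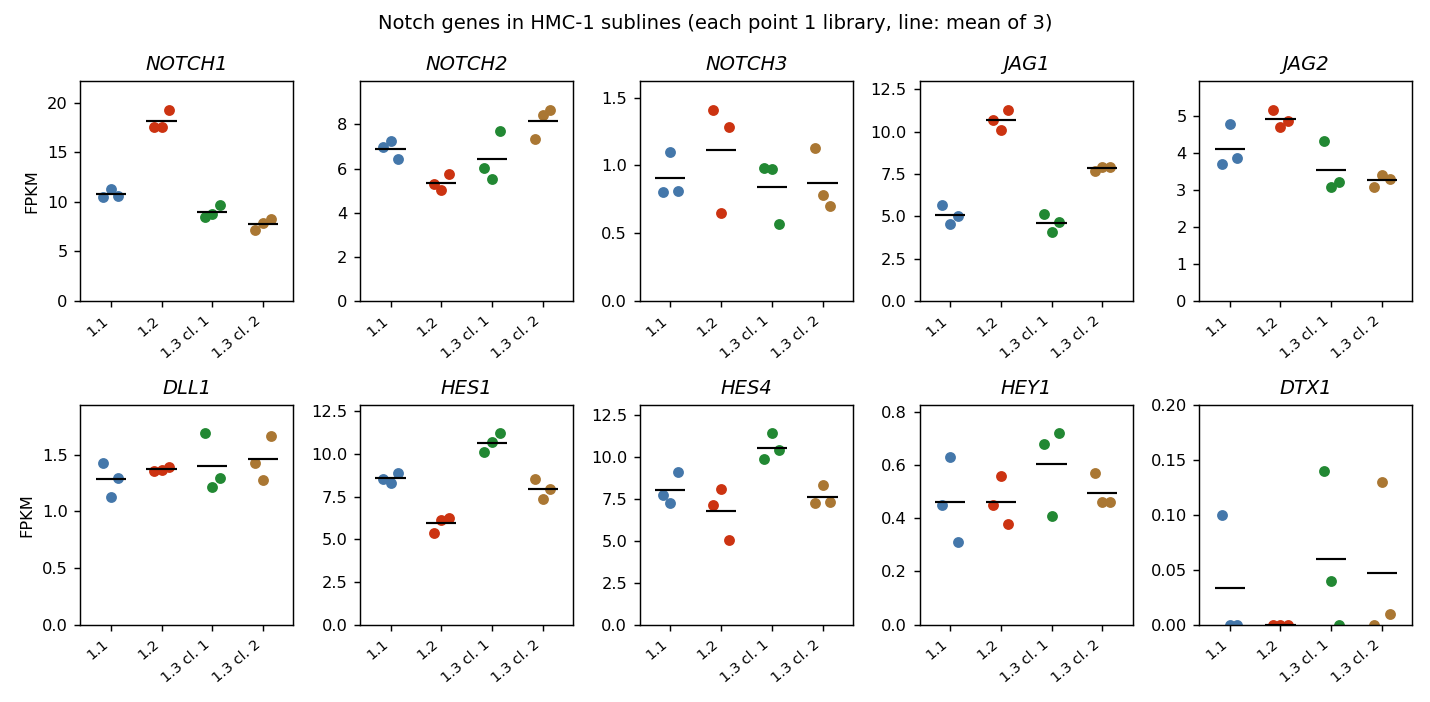
FPKM of the 10 Notch genes on linear axes that start at 0, with 1 panel for each gene, 1 point for each library and a line at the mean of the 3 libraries of each population, where 1.3 cl. 1 and 1.3 cl. 2 are the HMC-1.3 clones. NOTCH1 and JAG1 are highest in HMC-1.2, HES1 is lowest there, and DTX1 does not exceed 0.14 FPKM.

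The comparisons below use CPM (counts scaled to the total of the library) for levels within a gene and edgeR's quasi-likelihood test on counts, with Benjamini-Hochberg adjustment over the 15944 genes. A gene was called, and is said to have risen or fallen, where its adjusted p was below 0.05 and it differed by more than 1.5-fold. The comparisons of clone 1, clone 2 and HMC-1.1 with HMC-1.2 share the 3 HMC-1.2 libraries and are therefore not independent of each other.

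Among the receptors, NOTCH1 was lower in each population that lacks the combination of both KIT mutations, while NOTCH2 was higher in clone 2. NOTCH1 (chromosome 9 of GRCh38, 136494433 to 136546048, minus strand) had 157, 154 and 172 CPM in HMC-1.2, 93.9, 98.5 and 93.4 in HMC-1.1, 72.7, 74.5 and 82.6 in clone 1, and 62.9, 70.7 and 73 in clone 2. All HMC-1.2 libraries were above all others, HMC-1.1 lay between them and the clones, and the clones overlapped with each other. Against HMC-1.2, NOTCH1 fell by 1.07 on the log2 scale in clone 1 (standard error 0.06, adjusted p = 5.5e-11), by 1.22 in clone 2 (standard error 0.06, adjusted p = 1.1e-11) and by 0.76 in HMC-1.1 (standard error 0.06, adjusted p = 5.4e-09). The clones were also below HMC-1.1, with log2 differences of -0.32 (adjusted p = 0.0013) for clone 1 and -0.47 (adjusted p = 7.7e-06) for clone 2, both smaller than 1.5-fold. The difference of 0.15 between the clones had an adjusted p of 0.042. A stretch of antisense annotation overlaps NOTCH1, as it does NOTCH2, JAG1 and DLL1, and although the libraries were made with a stranded kit, whether the counting used strand is not given in the sources used here. JAG2 and DLL1 are also overlapped by annotation on their own strand, which strand would not separate.

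NOTCH2 (chromosome 1, 119911553 to 120100779, minus strand) is the receptor that the same ligands bind in many tissues beside NOTCH1. It had 59.5, 56.9 and 64.3 CPM in HMC-1.2, 71.1, 78.4 and 71.3 in HMC-1.1, 65.8, 59.5 and 81.7 in clone 1, and 82.8, 93.7 and 95 in clone 2. The clone 2 libraries were above all others, and clone 1 overlapped with both HMC-1.2 and HMC-1.1, with its replicate 3, a resent library, above its other two. NOTCH2 rose in clone 2 by 0.59 on the log2 scale (standard error 0.09, adjusted p = 2.5e-05), a fold of 1.5 that lies at the threshold. This call was lost without HMC-1.2 replicate 1 (0.58), HMC-1.2 replicate 2 (0.55), clone 2 replicate 2 (0.57) or clone 2 replicate 3 (0.55), though each of these had an adjusted p of at most 0.00028. The difference was 0.20 in clone 1 (adjusted p = 0.067) and 0.29 in HMC-1.1 (adjusted p = 0.011). Between the clones it was -0.39 for clone 1 against clone 2 (standard error 0.09, adjusted p = 0.001), and it reached -0.59 (adjusted p = 2e-06) without the 3 resent libraries, a setting chosen after seeing the data. NOTCH2 shares sequence with the NOTCH2NL paralogs, among which the estimation of counts could split reads, so its level is less certain than that of NOTCH1.

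NOTCH3 (chromosome 19, 15159038 to 15200995, minus strand), a receptor best known from vascular smooth muscle, was low and nearly level. It had 5.81, 5.64 and 5.38 CPM in HMC-1.2, 5.78, 5.72 and 5.52 in HMC-1.1, 4.99, 4.91 and 4.63 in clone 1, and 5.06, 5.08 and 5.11 in clone 2. Both clones lay below both other groups without overlap, but the log2 differences were small, between -0.23 (clone 1 against HMC-1.1, adjusted p = 0.09) and 0.01 (HMC-1.1 against HMC-1.2), and none was called. Its FPKM varied more than its counts, from 0.65 to 1.41 within HMC-1.2. The estimated FPKM also depends on which transcripts the reads are assigned to, and the part of this in the spread was not tested.

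The log2 differences from HMC-1.2 were negative for NOTCH1 and positive for NOTCH2, which was called in clone 2, and the make-up of the receptor mRNA differed with them. NOTCH1 supplied 67.1% ± 1.71 (SD, n = 3) of the summed FPKM of NOTCH1 to NOTCH4 in HMC-1.2 cells, 54.5% ± 0.451 in HMC-1.1 cells, 51% ± 2.04 in clone 1 and 42.9% ± 0.572 in clone 2. NOTCH2 supplied 19.8% ± 0.0782, 34.7% ± 1.43, 36.5% ± 3.15 and 45.1% ± 1.53 in the same order. The FPKM ratio of NOTCH1 to NOTCH2 was thus 3.39 ± 0.10 in HMC-1.2 cells, 1.57 ± 0.07 in HMC-1.1 cells, 1.41 ± 0.17 in clone 1 and 0.95 ± 0.02 in clone 2, and the HMC-1.2 and clone 2 libraries did not overlap with any other group. The summed receptor FPKM was 27.1 ± 1.8 in HMC-1.2 cells, 19.9 ± 0.959 in HMC-1.1 cells, 17.6 ± 1.57 in clone 1 and 18.1 ± 0.986 in clone 2. These shares are given as descriptions without a test.

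**Figure D2:**
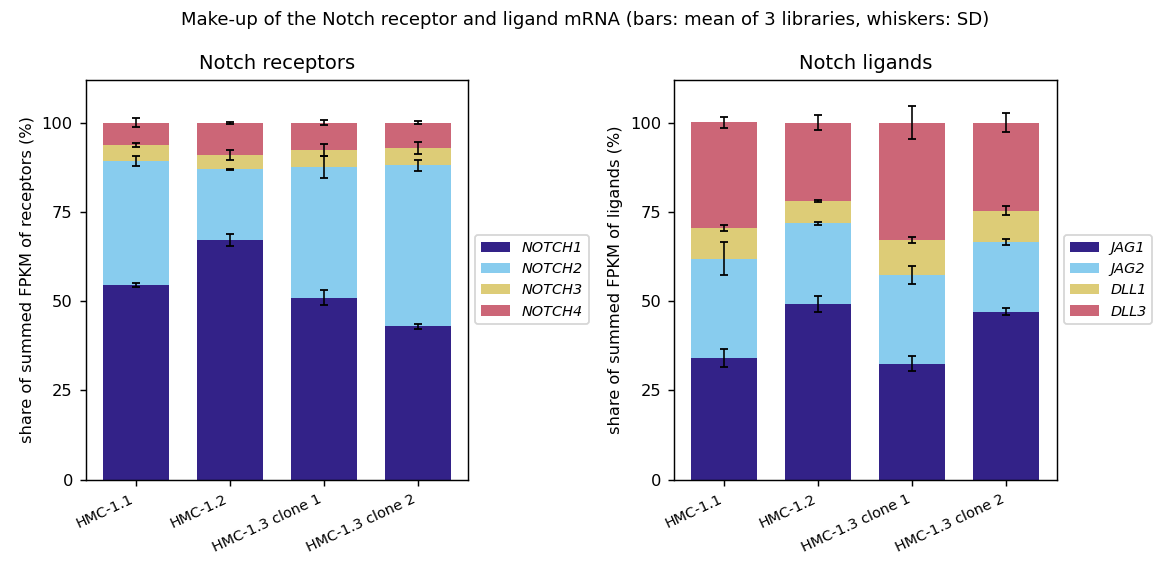
Share of each receptor (left) and ligand (right) in the summed FPKM of its class, in percent, for each population; stacked bars are means of 3 libraries and whiskers, drawn at the top of each segment, are the SD of that share. The receptors summed are NOTCH1 to NOTCH4, and the ligands summed are JAG1, JAG2, DLL1 and DLL3. NOTCH1 makes up 67.1% of receptor FPKM in HMC-1.2 and 42.9% in clone 2, and JAG1 makes up 49.2% of ligand FPKM in HMC-1.2, against 47% in clone 2 and 32.5% in clone 1.

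Among the ligands, JAG1 and JAG2 were lower outside HMC-1.2, and JAG1 separated the HMC-1.3 clones. JAG1 (chromosome 20, 10637684 to 10673999, minus strand), a Jagged ligand that activates NOTCH1 and NOTCH2, had 59.1, 56.8 and 60.2 CPM in HMC-1.2, 28.3, 25.1 and 26.8 in HMC-1.1, 26, 22.5 and 25.1 in clone 1, and 37.7, 42.2 and 41.6 in clone 2. HMC-1.2 was above all other libraries, clone 2 lay between, and clone 1 overlapped with HMC-1.1. JAG1 fell by 1.26 in clone 1 (standard error 0.06, adjusted p = 9.7e-12) and by 1.14 in HMC-1.1 (standard error 0.06, adjusted p = 4.1e-11). In clone 2 its log2 difference from HMC-1.2 was -0.53 (standard error 0.06, adjusted p = 5e-07), a fold of 1.45 and so not called. The clones differed in JAG1 by -0.73 for clone 1 against clone 2 (standard error 0.06, adjusted p = 3.1e-08), and clone 2 was above HMC-1.1 by 0.60 (standard error 0.06, adjusted p = 5e-07). The call against HMC-1.1 was lost without HMC-1.1 replicate 2 (0.56) or clone 2 replicate 2 (0.58).

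JAG2 (chromosome 14, 105140982 to 105168824, minus strand), the other Jagged ligand, had 17.1, 16.4 and 17.5 CPM in HMC-1.2, 13.5, 13.1 and 13.3 in HMC-1.1, 13.7, 11.1 and 10.7 in clone 1, and 10.4, 11.6 and 10.2 in clone 2. All HMC-1.2 libraries were above all others, and clone 1 overlapped with both HMC-1.1 and clone 2. JAG2 fell by 0.67 in clone 2 (standard error 0.08, adjusted p = 3.3e-06). Its log2 differences of -0.52 in clone 1 (adjusted p = 3.2e-05) and -0.35 in HMC-1.1 (adjusted p = 0.0015) stayed under 1.5-fold, although that of clone 1 reached -0.65 and was called without clone 1 replicate 1. The FPKM ratio of JAG1 to JAG2 was 2.18 ± 0.13 (SD, n = 3) in HMC-1.2 and 2.41 ± 0.09 in clone 2, against 1.26 ± 0.29 in HMC-1.1 and 1.32 ± 0.13 in clone 1.

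DLL1 (chromosome 6, 170282206 to 170306565, minus strand), a Delta-like ligand, had 3.77, 3.1 and 4.14 CPM in HMC-1.2, 3.69, 2.64 and 3.82 in HMC-1.1, 3.7, 3.55 and 3.75 in clone 1, and 3.62, 3.69 and 3.93 in clone 2. The groups overlapped in all 6 comparisons, and the log2 differences ran from -0.12 to 0.15 with standard errors of 0.14 or 0.15. With 94 to 170 counts per library, differences of this size were not detectable at this depth.

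The HES targets were highest in clone 1. HES1 (chromosome 3, 194136148 to 194138732, plus strand), the repressor that is the most widely used readout of Notch activity, had 7.43, 8.52 and 8.24 CPM in HMC-1.2, 11.2, 10.9 and 11.8 in HMC-1.1, 13.4, 14.2 and 14.7 in clone 1, and 11.4, 9.85 and 10.6 in clone 2. The HMC-1.2 libraries were below all others and the clone 1 libraries above all others, while HMC-1.1 and clone 2 overlapped. HES1 rose in clone 1 by 0.81 on the log2 scale (standard error 0.08, adjusted p = 1.2e-07). The differences of 0.40 in clone 2 (adjusted p = 5e-04) and 0.49 in HMC-1.1 (adjusted p = 5.5e-05) had the same sign and stayed under 1.5-fold. Clone 1 was also above clone 2 by 0.41 (adjusted p = 0.00021) and above HMC-1.1 by 0.32 (adjusted p = 0.0073). HES1 was thus lowest in HMC-1.2, where NOTCH1 and JAG1 were highest, which is a description of levels.

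HES4 (chromosome 1, 998962 to 1000172, minus strand), a further repressor of the family and a Notch target in human T cell precursors, had 5, 5.88 and 3.62 CPM in HMC-1.2, 5.23, 4.84 and 6.22 in HMC-1.1, 6.65, 7.77 and 7.1 in clone 1, and 4.91, 5.82 and 4.95 in clone 2. The clone 1 libraries were above all others, and the other 3 groups overlapped. The log2 difference of clone 1 from HMC-1.2 was 0.57 (standard error 0.15, adjusted p = 0.0029), a fold of 1.48 and so not called, and it was called at 0.73 without HMC-1.2 replicate 2, at 0.59 without HMC-1.2 replicate 1 and at 0.61 without clone 1 replicate 1. Clone 1 was above clone 2 by 0.46 (adjusted p = 0.013). The differences from HMC-1.2 were 0.11 in clone 2 and 0.17 in HMC-1.1 (adjusted p = 0.58 and 0.37).

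Since HES1 and HES4 were both highest in clone 1, their promoters are shown where the core sequence bound by RBPJ, GTGGGAA, occurs. Both stretches are 80 bases long and end 61 bases before the RefSeq start of the gene, on the strand of the gene, at chr3:194136008-194136087 (plus strand) and chr1:1000158-1000237 (minus strand) of GRCh38.p14. Capitals mark GTGGGAA and the shorter TGGGAA, which is contained in it. The end of the HES4 stretch lies inside the gene as Gencode draws it, since that annotation places the start further upstream.
HES1: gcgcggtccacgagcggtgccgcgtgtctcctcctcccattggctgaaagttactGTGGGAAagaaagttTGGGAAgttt
HES4: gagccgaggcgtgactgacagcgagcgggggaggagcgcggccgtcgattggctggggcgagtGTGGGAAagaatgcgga

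In HES1, GTGGGAA lay 85 to 79 bases before the start and a further TGGGAA lay 70 to 65 bases before it. In HES4, GTGGGAA lay 77 to 71 bases before the start. Searched on both strands over 300 bases, from 250 before to 50 after the start, GTGGGAA was in 6.25% of the 35116 RefSeq promoters and TGGGAA in 24%. Of the 10 Notch genes, 7 had a promoter in the RefSeq table, and HES1 and HES4 were those with GTGGGAA. Of the 9 promoters of the HES and HEY genes and NRARP, 5 held it, namely those of HES1, HES4, HES5, HEY2 and HEYL. HES5 had no counts in these libraries, and HEYL had its highest counts in HMC-1.2, as given below. A match is a description of the sequence and does not show that RBPJ was bound in these cells.

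HEY1 (chromosome 8, minus strand), a repressor of the related HEY family, was low in every library. It had 34, 36 and 22 counts in HMC-1.2, 35, 45 and 24 in HMC-1.1, 40, 31 and 51 in clone 1, and 37, 37 and 36 in clone 2. The groups overlapped, and the log2 differences from HMC-1.2 were 0.22 for clone 1, -0.02 for clone 2 and -0.06 for HMC-1.1, each with a standard error of 0.29, so that differences of this size were not detectable at this depth. DTX1 (chromosome 12, 113056730 to 113098028, plus strand), which encodes a ubiquitin ligase of the Deltex family that binds Notch, had no counts in the HMC-1.2 libraries, 3, 0 and 0 in HMC-1.1, 2, 3 and 0 in clone 1 and 0, 1 and 2 in clone 2. All these are within the 3 counts that a count of 0 allows, so no fold is given.

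Of the 9 Notch genes tested, 3 changed in clone 1 against HMC-1.2 (HES1 rose, NOTCH1 and JAG1 fell), where 20.0% of all genes tested were called, 11.8% higher and 8.18% lower. In clone 2, 3 changed (NOTCH2 rose, NOTCH1 and JAG2 fell) against a background of 16.5%, with 7.98% higher and 8.51% lower. In HMC-1.1, NOTCH1 and JAG1 fell against a background of 17.6%, of which 10.1% were higher and 7.52% lower. These counts are 33.3%, 33.3% and 22.2% of 9 genes, too few for the share to say anything particular about the group, and the calls are given as results about single genes. The median log2 difference of the 9 genes was 0.00 for clone 1, -0.02 for clone 2 and -0.06 for HMC-1.1, beside 0.01, 0.00 and 0.01 for all genes.

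The populations other than HMC-1.2 were also compared with each other. Between clone 1 and HMC-1.1, 0 of the 9 were called by edgeR and by DESeq2, against a background of 1.01% (0.671% higher and 0.339% lower), although 4 had an unadjusted p under 0.05. JAG1 was the gene called between clone 2 and HMC-1.1, where 8.19% of all genes tested were called (3.04% higher and 5.15% lower in clone 2), and between the clones, where 12.6% were called (8.38% higher and 4.25% lower in clone 1). The libraries of 6, 6 and 5 of the 9 genes did not overlap between clone 1, clone 2 or HMC-1.1 and HMC-1.2, compared with 64.2%, 56.0% and 59.9% of all genes tested. Between clone 1 and HMC-1.1, clone 2 and HMC-1.1, and the clones, they were 4, 5 and 5 of 9, compared with 33.3%, 47.2% and 56.7%.

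**Figure D3:**
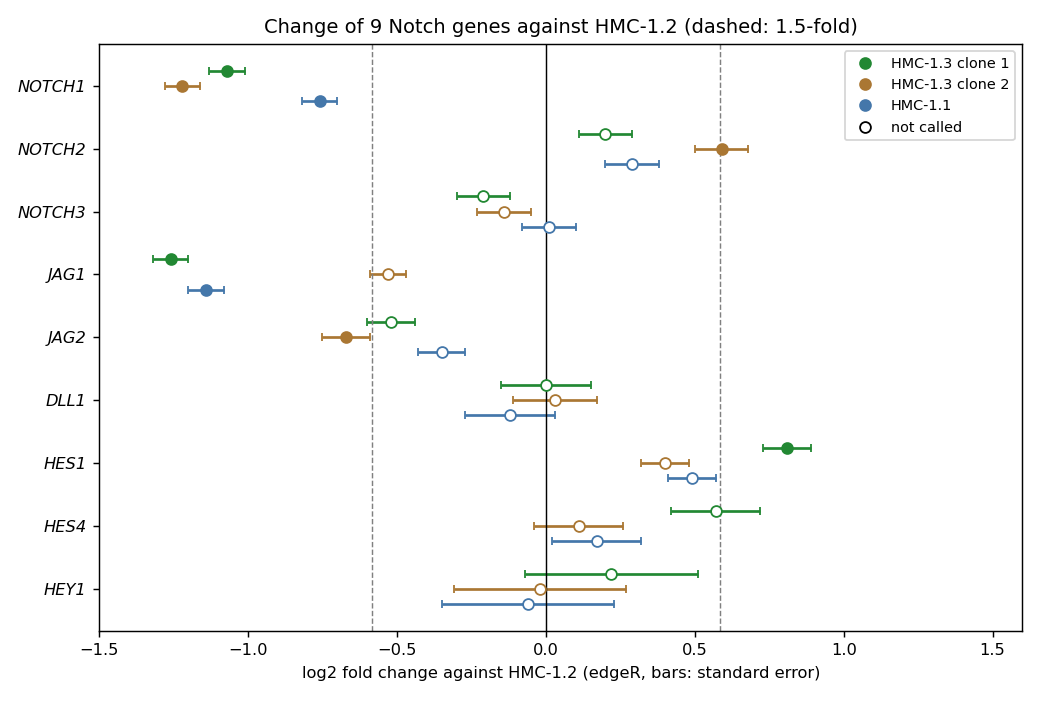
Log2 difference from HMC-1.2 of the 9 Notch genes tested, in HMC-1.3 clone 1, clone 2 and HMC-1.1, with standard errors from edgeR; filled points were called and open points were not, and dashed lines mark 1.5-fold. NOTCH1 lies between -1.22 and -0.76 in the 3 comparisons, JAG1 lies at -1.26 and -1.14 in clone 1 and HMC-1.1 but at -0.53 in clone 2, and HES1 is positive in all 3.

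The wider pathway was described with a list of 67 genes, 59 of them tested and including the 10 above. In clone 1, 5 rose and 5 fell, in clone 2, 5 rose and 6 fell, and in HMC-1.1, 4 rose and 5 fell, shares of 16.9%, 18.6% and 15.3% that were close to the backgrounds of 20.0%, 16.5% and 17.6%. The median log2 difference of the list was -0.06, -0.05 and -0.05. The calls by edgeR fell on the receptors, the ligands, receptor turnover, the nuclear complex, the corepressors and, in clone 1, the HES genes. Among the HES and HEY genes and NRARP, edgeR called 1, 0 and 0 in clone 1, clone 2 and HMC-1.1, and DESeq2 called 2, 1 and 1. Both tools called 0 of 9 receptor processing, 0 of 5 receptor glycosylation and 0 of 4 ligand ubiquitination genes in the comparisons with HMC-1.2. At an unadjusted p under 0.05, the numbers in clone 1, clone 2 and HMC-1.1 were 6, 7 and 5 for processing, 2, 3 and 3 for glycosylation and 2, 2 and 3 for ubiquitination. By limma on log2(FPKM + 0.1), 1 gene of ubiquitination was called in clone 1 and 1 in HMC-1.1.

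NOTCH4, a receptor best known from endothelium, had 4.05, 3.96 and 4.52 CPM in HMC-1.2 and between 1.64 and 2.65 in every other library. It fell by 0.85 in clone 1 (standard error 0.16, adjusted p = 0.00017), by 0.97 in clone 2 (standard error 0.16, adjusted p = 6.8e-05) and by 1.05 in HMC-1.1 (standard error 0.16, adjusted p = 2.9e-05). The NOTCH4 call in clone 1 was lost when tested against 1.5-fold itself (adjusted p = 0.11) and with limma on log2(FPKM + 1) (-0.56). The annotation of GPSM3 overlaps NOTCH4 on the same strand, where strand would not separate their reads. Its part in the counts, FPKM and receptor share of NOTCH4 was not tested. DTX4, a relative of DTX1 among the Deltex ligases, had 3.24, 2.74 and 2.9 CPM in HMC-1.2 and between 5.23 and 8.36 elsewhere. Its level rose in clone 1 by 1.36 (standard error 0.11, adjusted p = 7.7e-09), by 0.89 in clone 2 (adjusted p = 2.7e-06) and by 1.38 in HMC-1.1 (adjusted p = 7.5e-09). The DTX4 call in clone 2 was lost with limma on log2(FPKM + 1) (0.39). MPEG1 overlaps DTX4 on the opposite strand, so the uncertainty about strand in the counting holds for DTX4 too.

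In the nuclear complex, RBPJ itself was close to level, with mean CPM of 83.5 for HMC-1.2 cells, 90.2 for HMC-1.1 cells, 87 in clone 1 and 92.6 in clone 2. Of the coactivators, MAML3 was about as level, and MAML1, MAML2 and KAT2B were called. MAML1, the Mastermind coactivator with the highest mean FPKM in HMC-1.2 (9.31, beside 5.3 for MAML3 and 0.0367 for MAML2), had 52.8, 48.8 and 51.9 CPM there and between 22.2 and 26.3 in every other library. It fell by 1.14 in clone 1 (standard error 0.05, adjusted p = 4.5e-12), by 1.02 in clone 2 (adjusted p = 1.7e-11) and by 1.05 in HMC-1.1 (adjusted p = 1.5e-11). Its neighbours fell with it, since of the 20 nearest genes tested with a mean of at least 1 CPM, 10 on either side over 2.62 Mb in all, 15, 17 and 17 were called lower in the same order. Around NOTCH1 (over 0.746 Mb), 0, 1 and 0 of the 20 were called lower, around JAG2 (1.6 Mb) 6, 7 and 6, and around JAG1 (11.7 Mb) 1, 0 and 1. The regions thus differ widely in length. Of all genes tested, 8.18%, 8.51% and 7.52% were called lower. Called higher were 1, 1 and 1 of the 20 around MAML1, 1, 1 and 1 around NOTCH1, 1, 0 and 1 around JAG2, and 7, 6 and 6 around JAG1. The shares called higher over all genes tested were 11.8%, 7.98% and 10.1%. MAML3 differed from HMC-1.2 by 0.07, 0.05 and 0.13 in the same order. KAT2B, a histone acetyltransferase of the complex, rose by 0.67 in clone 1, by 0.72 in clone 2 and by 0.63 in HMC-1.1, with an adjusted p of at most 6.9e-08, and its calls in clone 1 and HMC-1.1 were lost when tested against 1.5-fold itself (adjusted p = 0.15 and 0.53). MAML2 rose by 1.52, 1.5 and 1.83 in the same order, but its counts were 2 to 11 in the HMC-1.2 libraries and 11 to 39 elsewhere. Its calls in clone 1 and clone 2 were lost without HMC-1.2 replicate 1 (1.00 and 0.99), in clone 1 without its replicate 3 (0.95) and in clone 2 without its replicate 1 (1.47) or 2 (1.38). In clone 1, clone 2 and HMC-1.1, the MAML2 calls were lost when tested against 1.5-fold itself (adjusted p = 0.19, 0.23 and 0.077). They were also lost with limma on log2(FPKM + 1) (0.09, 0.09 and 0.11). With limma on log2(FPKM + 0.1), those of clone 1 and clone 2 were lost (0.55 and 0.59).

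TLE1 and TLE3, corepressors that hold Notch and other target genes silent, changed in opposite directions. TLE1 rose from a mean of 16.5 CPM in HMC-1.2 to 30.3 for clone 1, 34.6 for clone 2 and 30.5 for HMC-1.1, log2 fold changes of 0.88, 1.07 and 0.89 (standard errors 0.06, adjusted p of at most 3.9e-09). TLE3 fell from 94.1 CPM to 57.3, 54.5 and 58.7, by 0.72, 0.79 and 0.68 on the log2 scale (standard errors 0.04, adjusted p of at most 4.9e-10). For both genes, the HMC-1.2 libraries were on one side of all others. TLE2 fell in clone 2 by 1.40 (standard error 0.49, adjusted p = 0.027), on 7 to 16 counts in HMC-1.2 and 2 to 8 in clone 2. Scaled for depth, at 0.241 to 0.447 and 0.0585 to 0.185 CPM, the libraries did not overlap, and the call was lost in 10 of the 21 alternatives that kept it among the genes tested.

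Other genes of the list that were not called against HMC-1.2 are given by their values. ADAM10, the protease that makes the ligand-dependent cut, differed from HMC-1.2 by -0.41, -0.34 and -0.36 on the log2 scale in clone 1, clone 2 and HMC-1.1, and NCSTN, the nicastrin subunit of gamma-secretase, by -0.32, -0.47 and -0.42, each with an adjusted p of at most 1.2e-07. MIB1, the ubiquitin ligase that ligands need for endocytosis, differed by 0.58 in clone 2 (adjusted p = 3.5e-07), just under 1.5-fold, and by 0.12 and 0.17 in clone 1 and HMC-1.1. MIB2, also among the ligand ubiquitination genes, differed by 0.58, 0.47 and 0.44 in clone 1, clone 2 and HMC-1.1, with an adjusted p of at most 3e-04. FURIN was lower in clone 1 than in clone 2 by -0.65 (standard error 0.03, adjusted p = 2e-11), the gene called between the clones beside JAG1. NRARP, a feedback target of Notch, differed by -0.48 in clone 1 (adjusted p = 5e-04), opposite in sign to HES1, and by -0.28 and -0.17 in clone 2 and HMC-1.1. HES6, which had the highest mean FPKM of the HES genes in HMC-1.2 at 40 ± 2.21 (SD, n = 3), differed by -0.06, -0.07 and -0.24 on the log2 scale.

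**Figure D4:**
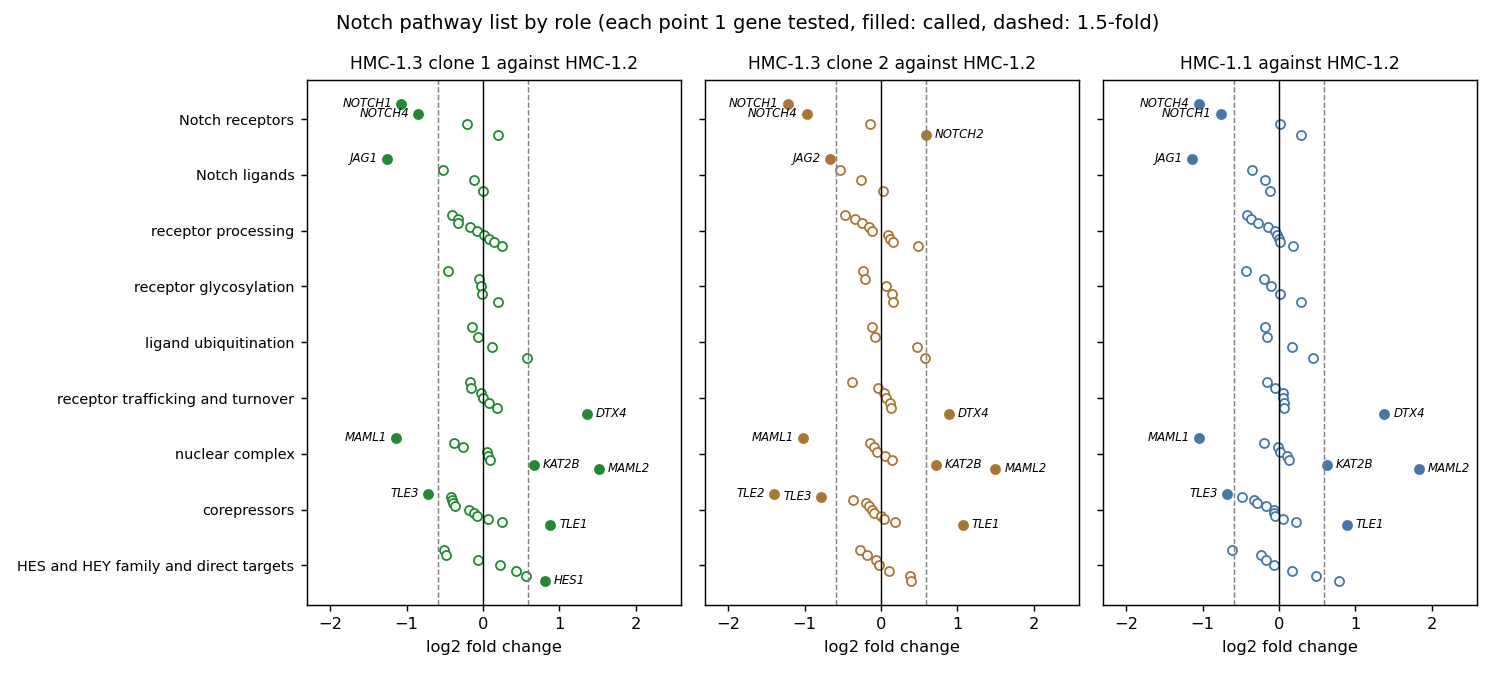
Log2 difference from HMC-1.2 of the 59 pathway genes tested, by role, for HMC-1.3 clone 1 (left), clone 2 (middle) and HMC-1.1 (right); each point is 1 gene, filled and named where it was called, and dashed lines mark 1.5-fold. Called genes lie among the receptors, ligands, turnover, nuclear complex, corepressors and HES genes, with none in receptor processing, receptor glycosylation or ligand ubiquitination.

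NOTCH1 and JAG1 were each called in 3 or more of the 6 comparisons, and the genes whose pattern over the 12 libraries was most like theirs were found among 13115 genes by the root mean square difference of centred log2 CPM. For NOTCH1 these were RNF44 (0.12), P2RY14 (0.13) and TUBB6 (0.14). For JAG1 they were FAM129B (0.07), HSPA5 (0.11) and CLIP2 (0.11). FAM129B had mean CPM of 351 for HMC-1.2 cells, 147 for HMC-1.1 cells, 143 in clone 1 and 237 in clone 2, the order of JAG1. The likeness is a description of levels over libraries that share their group.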

How the data were processed

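Poly(A)-based bulk RNA-seq libraries of HMC-1.2, HMC-1.1 and both HMC-1.3 clones were analysed, 3 per population, from 2 deposited tables with 58381 genes each. One table holds the expected counts (estimated counts per gene, of which 7.39% are not whole numbers) that the authors obtained with RSEM 1.3.0, and the other holds FPKM values, which the authors also deposited from RSEM. According to the submitters' processing notes, reads were trimmed with cutadapt 2.10 and aligned with STAR 2.5.3 to hg38, with Picard and DESeq2 also listed. The library kit was stranded, but whether the counting used strand is not given in the sources used here. FPKM carries the estimated transcript length as well as depth, so it was used for levels between genes, and counts for differences between populations.

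Counts were rounded to whole numbers, filtered with filterByExpr (15944 genes kept) and scaled by TMM (factors 0.974 to 1.02). All 12 libraries were fitted together with edgeR 4.0.16 in R 4.3.3, using the quasi-likelihood F-test for 6 comparisons and Benjamini-Hochberg adjustment over all genes tested (common biological coefficient of variation 0.0442). The fit was tested on simulated data for clone 1 against HMC-1.2 with 15944 genes, all given the same biological coefficient of variation. A gene counted as recovered at an adjusted p below 0.05 alone, without the 1.5-fold limit that a call needs. The fit recovered 45 of 50 genes changed 1.5-fold, 45 of 50 changed 2-fold, 48 of 50 changed 3-fold and 47 of 50 changed 4-fold. Of the unchanged genes, 4 also passed. These numbers describe the adjusted p and not the calls with their fold limit. Library totals were 29225900 to 43181402. A count of 0 was taken to allow up to 3 counts, which covers counting error only. Replicates differed beyond sampling noise (chi-square per degree of freedom 2.95 to 8.36), so none was counted as a duplicate. Likeness to NOTCH1 and JAG1 was measured on log2 CPM (prior count 3) among genes that averaged 1 CPM or more.

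Alternatives were DESeq2 1.42.0 with its own size factors, relative log expression scaling, no filter on low counts, a minimum of 0.5 CPM in 1 library, a fit on only the groups compared, a replicate block, a term for the resent libraries, a test against 1.5-fold itself (glmTreat), limma 3.58.1 on log2(FPKM + 1) or log2(FPKM + 0.1), and a fit without each single library. Leaving out all 3 resent libraries, and running the alternatives on pathway genes beyond the 10, was decided after seeing the data. The 10 Notch genes, the pathway list, the marker lists and the naming rule were chosen with earlier results of these data known. By that rule, all 10 genes, every pathway gene called against HMC-1.2, pathway genes whose role a sentence needs and the 3 genes most like each member called in 3 or more of the 6 comparisons were named. The study of neighbouring genes was added after values were seen. Positions are from Gencode 44 (GRCh38), which held 99% of the gene identifiers, and promoters from the RefSeq table of GRCh38.p14. The methods of the study name another Gencode release for counting. Figures were drawn with matplotlib 3.10.9 in Python 3.11.15.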

Additional observations from a re-analysis of the deposited data

Results flagged for a closer look

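JAG1 was the Notch gene whose change against HMC-1.2 was called different between the HMC-1.3 clones by their direct comparison, with an estimate beyond 1.5-fold. Its log2 fold change against HMC-1.2 was -1.26 for clone 1 and -0.53 for clone 2. The difference of -0.73 (standard error 0.06) had an adjusted p of 3.1e-08 by edgeR's quasi-likelihood test, which is against no difference. Tested against 1.5-fold itself, the adjusted p was 0.066 and the call was lost. The clone 1 libraries lay at 22.5 to 26 CPM and the clone 2 libraries at 37.7 to 42.2 CPM. Each clone descends from a single cell and both have the same stated KIT genotype, so this is a difference between clones, whose cause was not tested. In the comparisons with HMC-1.2, the clone and the edit cannot be told apart from these libraries.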

How the results depend on the processing

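Of 54 log2 fold changes of the 9 tested Notch genes, 35 kept their direction and their side of the threshold in all 23 alternatives, 7 crossed the threshold in at least 1 and 12 changed sign in at least 1. The calls of NOTCH1 in the 3 comparisons with HMC-1.2, of JAG1 in clone 1 and HMC-1.1 and of HES1 in clone 1 held in all 23. Replicate numbers did not pair the libraries, since no correlation of same-numbered libraries exceeded 0.1 (18 pairs, -0.04 to 0.1). With a replicate block, 3, 3, 2, 0, 1 and 1 of the Notch genes were called in the 6 comparisons, as without it, and 3185 of all genes in clone 1 against HMC-1.2 instead of 3193.

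Testing against 1.5-fold itself left 1 Notch gene called in clone 2 against HMC-1.2 instead of 3 (7 of the pathway list instead of 11), 0 in clone 2 against HMC-1.1 instead of 1 (list 0) and 0 between the clones instead of 1 (list 0 instead of 2), where JAG1 had an adjusted p of 0.066. It called 1932, 1612 and 1618 of all genes in clone 1, clone 2 and HMC-1.1 against HMC-1.2, instead of 3193, 2630 and 2803. With limma on log2(FPKM + 1), a scale that understates changes of low genes, these numbers were 1897, 1449 and 1504, and 1 Notch gene (list 6) was called in clone 2 against HMC-1.2 and 0 (list 0) in clone 2 against HMC-1.1. The list count in clone 2 against HMC-1.1 was 2 on only the groups compared and 2 with a term for the resent libraries. Without the 3 resent libraries, 2 Notch genes were called between the clones, with NOTCH2 at -0.59. HES4 in clone 1 was then called at 0.60, as with limma (0.59 and 0.66), while MAML2 was no longer called in clone 1 (0.44) or clone 2 (0.95). JAG2 in clone 2 was lost under the test against 1.5-fold (adjusted p = 0.42) and limma (-0.47 and -0.58). For these changes the cause was not tested. Leaving out 1 library gave 3 to 5 Notch genes in clone 1 against HMC-1.2 (5 without clone 1 replicate 1), and 0 to 1 Notch genes and 0 to 2 of the list in clone 2 against HMC-1.1.

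The values that changed sign were all within 0.22 of 0 in the reported fit. Leaving out 1 library, the DLL1 difference ran from -0.11 to 0.09 in clone 1, -0.07 to 0.13 in clone 2 and -0.22 to 0.03 in HMC-1.1 relative to HMC-1.2, and from -0.04 to 0.21 in clone 1 and 0.00 to 0.25 in clone 2 against HMC-1.1. HES4 ran from -0.05 to 0.27 in clone 2 against HMC-1.2 and from -0.14 to 0.06 against HMC-1.1. HEY1 ran from 0.00 to 0.39, -0.16 to 0.15 and -0.31 to 0.16 in clone 1, clone 2 and HMC-1.1 against HMC-1.2, and from -0.18 to 0.29 in clone 2 against HMC-1.1. NOTCH3 ran from -0.01 to 0.04 in HMC-1.1. Among other settings, DLL1 in clone 1 lay at 0.00 with no filter, on only the groups compared and without the resent libraries, at 0.01 with the replicate block and at 0.01 and 0.02 with limma. HEY1 lay at -0.02 in clone 1 without the resent libraries, at 0.03 and 0.09 in clone 2 with limma, at 0.04 in HMC-1.1 with a term for the resent libraries, and in clone 2 against HMC-1.1 at -0.07 with that term and -0.06 without those libraries. NOTCH3 in HMC-1.1 lay at -0.14 and -0.22 with limma.

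The depth limits the genes with few counts, such as DLL1, HEY1 and DTX1, and MAML2 and TLE2 among the other pathway genes. The triplicates are wells of 1 line or 1 clone, so none of these results says how other clones with the same KIT alleles would differ.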

Other observations

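HEYL, a further repressor of the HEY family, was under the filter on low counts and was singled out after its values were seen. It had 14, 8 and 7 counts in the HMC-1.2 libraries, 1, 1 and 0 in HMC-1.1, 0 in each clone 1 library, and 1, 0 and 2 in clone 2, so that HMC-1.2 did not overlap with the other populations. It thus stood highest in HMC-1.2, where HES1 was lowest. No fold or test is given.

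The ligand DLL3, which acts mainly inside the cell on Notch receptors, had a mean of 4.78 FPKM in HMC-1.2 cells, 4.39 in HMC-1.1 cells, 4.64 in clone 1 and 4.11 in clone 2, above DLL1 in each population. DLL4 did not exceed 4 counts in any library. DLK1 and HES5, the latter a widely used Notch target in neural cells, had no counts in the 12 libraries, which allows up to 3 counts per library.

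Around JAG1, the median log2 difference from HMC-1.2 of the 20 nearest genes tested with a mean of at least 1 CPM was 0.26 for clone 1, 0.32 for clone 2 and 0.17 for HMC-1.1, opposite in sign to JAG1. Around MAML1 it was -0.96, -0.92 and -0.94, around JAG2 -0.30, -0.32 and -0.28, and around NOTCH1 0.01, -0.04 and -0.03. The regions spanned 11.7 Mb for JAG1, 2.62 Mb for MAML1, 1.6 Mb for JAG2 and 0.746 Mb for NOTCH1. Whether the copy number of these regions differs between the populations was not tested.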
